A study of Mus musculus with 4 samples.

Results

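The secreted Wnt antagonists described here were 9 genes of the 32285 listed for each cell: Sfrp1, Sfrp2, Sfrp4, Sfrp5, Frzb, Dkk2, Dkk3, Wif1 and Sost. They were picked by gene symbol, with their levels in earlier results of these files known, so their levels are a description and carry no test. The study profiled single cells of the mouse middle phalanx (P2), a digit level that heals an amputation by fibrosis rather than regrowth. Each of 4 groups was 1 library: homeostatic, unamputated P2 tissue, and fibrosing P2 tissue at 12, 17 and 28 days post-amputation (dpa). All groups shared the FVB/NJ strain, a wild-type genotype and an age of 8 weeks, and each was labelled as a pool of both sexes. The labels do not say how many animals a pool held, and 1 library per group leaves no spread between animals to measure. All intervals below are exact 95% intervals that cover counting error only.

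Wnt proteins are secreted lipid-modified signals that bind Frizzled receptors and the co-receptors LRP5 and LRP6 on the cell surface, which stabilises β-catenin inside the cell. Secreted antagonists act outside the cell, either by binding the Wnt protein itself or by occupying the co-receptor. In the skeleton and the dermis this signalling is known for its part in bone formation, in hair follicle and nail growth, and in fibroblast behaviour.

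The starts of these genes differ in sequence, and 2 promoters are shown because their genes gave contrasting cell sources below: Sfrp2 was read almost wholly from connective tissue cells, and Dkk2 from these cells and from endothelium. Each is the 250 bases before the gene start in RefSeq (GRCm38.p6), written 5′ to 3′ on the strand of the gene, with a TATAAA match in capitals. The Sfrp2 window is chr3:83766071-83766320 on the plus strand and the Dkk2 window is chr3:132085042-132085291, also on the plus strand.
Sfrp2: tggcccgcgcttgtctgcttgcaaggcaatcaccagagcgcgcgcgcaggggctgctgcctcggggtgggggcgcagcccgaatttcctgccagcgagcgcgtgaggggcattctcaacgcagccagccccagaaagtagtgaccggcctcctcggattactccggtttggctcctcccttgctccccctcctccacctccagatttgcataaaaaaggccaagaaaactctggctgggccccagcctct
Dkk2: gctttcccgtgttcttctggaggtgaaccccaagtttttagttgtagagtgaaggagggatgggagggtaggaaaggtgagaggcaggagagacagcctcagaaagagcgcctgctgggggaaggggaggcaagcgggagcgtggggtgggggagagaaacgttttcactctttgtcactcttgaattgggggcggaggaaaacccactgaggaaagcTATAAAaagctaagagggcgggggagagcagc
Both strands were searched for 3 motifs in these windows and in 32851 promoters of the same length. The TATA box, as TATAAA, was in 12.4% of all promoters. The core of TCF/LEF sites, where β-catenin acts, was searched as CTTTGNA and was in 15.7%. The RUNX site, as TGTGGT, was in 4614 of them. The Dkk2 window held TATAAA with its first base 32 bases before the start and 7 CG dinucleotides. The Sfrp2 window held none of these 3 motifs and 16 CG dinucleotides, against a median of 6 over all promoters. A match or its absence describes these letters only. Of the 9 genes, 6 had a promoter entry, and Sfrp1, Sfrp4 and Dkk3 had none.

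After filtering, 34951 cells were kept, from 6514 to 10125 per library after amputation and 10394 in the unamputated library, with median depths of 6654 to 11630 unique molecular identifiers (UMIs) per cell. The unamputated library was the deepest and the 28 dpa library the shallowest. Pairs of libraries shared 19 to 87 cell barcodes, at most 0.570% of a library. The 12 dpa library stood apart: Xist, the X-inactivation transcript of female cells, was at 458 CPM (UMIs of the gene per 1000000 UMIs of the summed cells) there and at most 0.153 CPM in the others, whereas 4 Y-linked genes summed to 0.228 CPM there and to 244 or more in the others. The label of a mixed-sex pool thus did not match any library, and at 12 dpa sex and time cannot be told apart. The cells fell into 27 clusters, of which 25 took a cell class name from fixed markers, and 7.08% of cells stayed unnamed. Names stand for marker-like cells.

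Connective tissue cells of 3 classes held most of the antagonist transcripts. These were fibroblast-like cells (746, 398, 1850 and 2453 cells in the unamputated, 12, 17 and 28 dpa libraries), tenocyte-like cells (939, 1756, 770 and 578 cells) and osteoblast or osteocyte-like cells (2.19% of the unamputated library, then 29, 383 and 357 cells). Together they made up 18.4%, 33.5%, 37.9% and 33.5% of the cells. They held 98.3% to 99.2% of Sfrp2 UMIs and 94.2% to 98.7% of Sfrp4 UMIs in every library. For Wif1 the share was 84.2% to 97.0% and for Dkk3 83.0% to 93.3%. Sfrp1 and Dkk2 had further sources, and the 3 classes held 55.7% to 80.4% of Sfrp1 UMIs and 48.8% to 88.7% of Dkk2 UMIs.

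**Figure D1:**
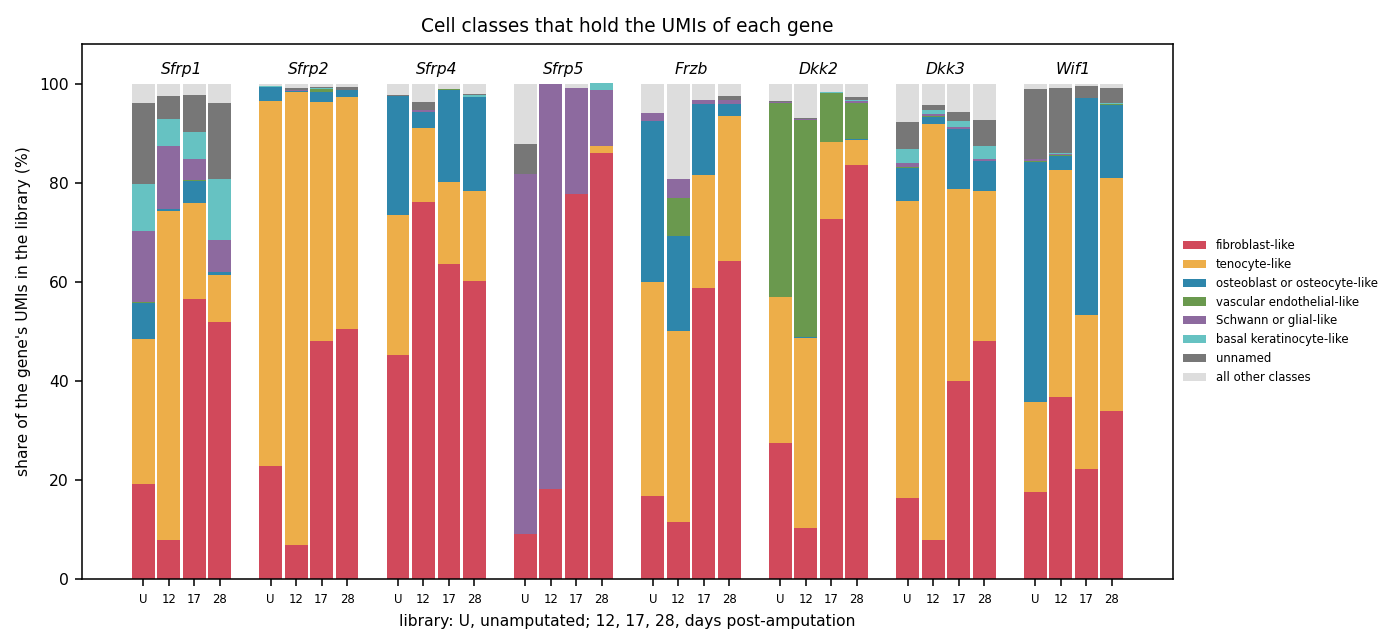
Share of each gene's UMIs, in percent of that gene's UMIs in the library, held by each cell class; U is the unamputated library and the numbers are days post-amputation. Fibroblast-, tenocyte- and osteoblast-like cells together hold 98.3% to 99.2% of Sfrp2, whereas vascular endothelial-like cells hold 39.0% of Dkk2 before amputation and 43.8% at 12 dpa; Sost is left out because it had 34 UMIs or fewer per library.

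**Figure D2:**
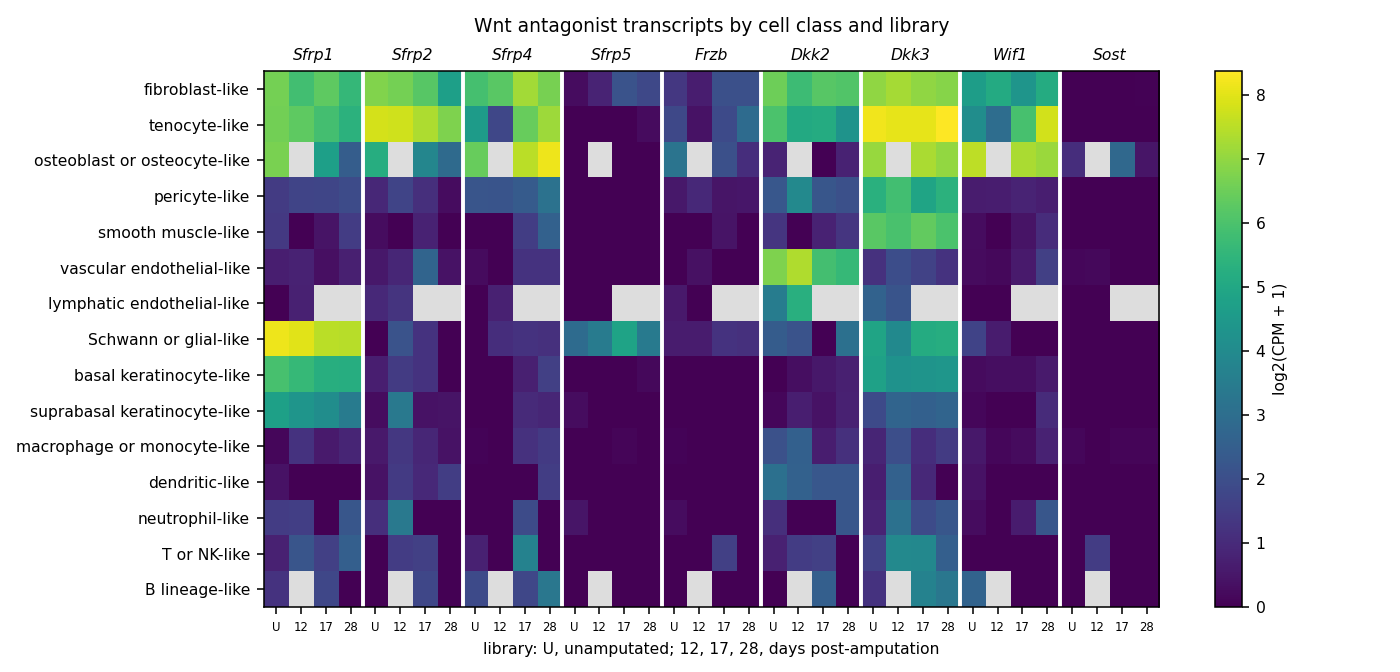
Level of all 9 genes, as log2(CPM + 1), in each cell class (vertical axis) and library (horizontal axis); grey cells of the plot have fewer than 50 cells. Sfrp1 is highest in Schwann or glial-like cells and Sfrp2 and Dkk3 in tenocyte-like cells, and Sost is at 6.06 CPM in osteoblast or osteocyte-like cells at 17 dpa, 93.9% of it from 1 cell, and at 1.79 CPM or less elsewhere.

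Free RNA in droplets can add UMIs to cells that do not express a gene. Neutrophil-like cells, which should lack these genes, showed a UMI of any 1 of them in at most 1.79% of cells, a value reached by Sfrp2 at 12 dpa. Their median depth was 1413.5 to 3085 UMIs, against 8650 to 18332.5 in fibroblast-like cells, so detection was also compared after thinning cells to 2000 UMIs, which leaves out shallower cells. In the 4 libraries this left out 8, 8, 39 and 60 fibroblast-like, 10, 9, 10 and 5 tenocyte-like, and 151, 188, 151 and 172 neutrophil-like cells. It also left out 3, 4 and 15 osteoblast or osteocyte-like cells in the unamputated, 17 and 28 dpa libraries, and 4 to 19 Schwann or glial-like and 11 to 51 vascular endothelial-like cells. Only 10 neutrophil-like cells remained at 28 dpa, too few to read a background at equal depth there. In CPM, neutrophil-like cells had Sfrp2 at 9.55 at 12 dpa, from 5 UMIs. At 28 dpa they had none, which allows at most 11.3 CPM when 3 counts are taken as the limit. Both values are above some levels given below, such as Sfrp2 at 7.82 CPM in cluster 13 at 28 dpa. Background at such low levels was therefore not closely measured. Isolated high values outside the main sources came from few cells. A vascular endothelial-like Sfrp2 level of 5.55 CPM at 17 dpa rested on 21 UMIs, 85.7% of them from 1 cell. The 31 UMIs of Sfrp2 in suprabasal keratinocyte-like cells at 12 dpa were to 71.0% from 1 cell.

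Sfrp2 (chr3:83766321-83774316, plus strand of GRCm38, the build of all gene positions here) encodes a secreted Frizzled-related protein, whose cysteine-rich domain resembles the Wnt-binding part of Frizzled. In fibroblast-like cells the 4 libraries, in the order unamputated, 12, 17 and 28 dpa used throughout, had it at 110.4 CPM (interval 105 to 116), 98.5 (90.1 to 108), 72.4 (68.9 to 76.0) and 25.2 (23.3 to 27.3). The intervals of the first 2 libraries overlapped, and those of 17 and 28 dpa lay below them and apart. The log2 ratio to the unamputated library, with 1 CPM added to each level, was -0.16, -0.60 and -2.09. The interval of the last, computed without the added CPM as all ratio intervals here, was -2.27 to -2.00. Sfrp2 was detected by at least 1 UMI in 35.3%, 33.7%, 19.5% and 9.09% of fibroblast-like cells, and after thinning 11.7%, 13.6%, 7.95% and 4.47%, so 28 dpa was lowest at equal depth too. The 10 fibroblast markers together stood at 66754, 64979.9, 64393 and 47283 CPM in these cells, and their part in the lower Sfrp2 level was not tested.

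The lower Sfrp2 level at 28 dpa was most marked in 1 of the 2 largest fibroblast-like clusters. Cluster 13, led by Clec3b, Mfap5 and Sema3e and making up 348, 338, 881 and 1590 cells, had Sfrp2 at 95.7, 103, 68.1 and 7.82 CPM. Its log2 ratio at 28 dpa was -3.46 (interval -3.88 to -3.35). Cluster 14, led by Hpse2, Apod, Dcn and Gdf10, had 172, 178, 123 and 94.1 CPM, a log2 ratio of -0.86 (interval -1.05 to -0.69) at 28 dpa, and so lay less than 2-fold lower. Its 12 dpa value rested on 23 cells. The intervals of these 2 ratios did not overlap, although each cluster is cells of the same 2 libraries.
At a finer clustering (Leiden resolution 2), the part of cluster 13 led by Mfap5 and Igfbp6 had 55.5, 54.6, 28.1 and 2.72 CPM, with 19 cells before amputation and 701 cells at 28 dpa. The part led by Pcolce2 and Clec3b had 48.7, 24.4, 57.2 and 9.70 CPM. The other 2 parts had 97.8 and 118 CPM before amputation and 35.2 and 26.2 CPM at 28 dpa. All 4 parts were thus lowest at 28 dpa. In contrast, cluster 26, led by Hhip, Nrg3, Rorb and Rspo3, had 440.0 CPM of Sfrp2 at 28 dpa, from 103 UMIs in 43 cells, 47.6% of them from 1 cell.

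In tenocyte-like cells Sfrp2 was at 226 CPM (220.2 to 233), 161 (154 to 169) and 108 (99.4 to 117) in the unamputated, 17 and 28 dpa libraries, and 6599 UMIs in 1756 cells gave nearly the unamputated level at 12 dpa. These levels were the highest of all classes in every library. The log2 ratios at 12, 17 and 28 dpa were -0.06, -0.49 and -1.06. Tenocyte-like cells were made of cluster 11, led by Comp, Ogn, Chad, Mmp13 and Bglap2, and cluster 12, led by C1qtnf3, Fmod, Tnn and Col11a1. Cluster 11 made up 27.3%, 1.99%, 60.8% and 37.0% of them, so different clusters held most of the class in different libraries. The leading genes of cluster 11 included as many osteoblast as tenocyte markers. Sfrp2 was at 221, 235, 178 and 159 CPM in cluster 11 and in cluster 12 at 148 CPM at 17 dpa and 91.1 CPM at 28 dpa, with log2 ratios at 28 dpa of -0.47 in cluster 11 and -1.31 in cluster 12. Within cluster 12, the finer part led by C1qtnf3 and Col11a1 had 250.4 CPM before amputation and 265 CPM at 28 dpa, but held only 20 cells at 28 dpa against 450 before. The finer part led by Fmod, Ecrg4, Comp and Acan, which took no class name by itself, held 64, 346, 99 and 340 cells and had 336, 326 and 83.4 CPM in the unamputated, 12 and 28 dpa libraries. The tenocyte-like value at 28 dpa was therefore read largely from the latter cells.
In osteoblast or osteocyte-like cells Sfrp2 was lower throughout, at 36.2, 13.2 and 6.38 CPM in the unamputated, 17 and 28 dpa libraries, and 52.9% of its 17 UMIs at 28 dpa came from 1 cell. The 12 dpa library had 29 such cells and is given no ratio.

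Sfrp1 (chr8:23411502-23449632, plus strand), of the same family, had sources beyond connective tissue. Among whole classes its level was highest in every library in Schwann or glial-like cells, the cells that ensheath nerves, at 288 CPM (271 to 306), 257 (234 to 282), 180.1 (151 to 213) and 178 (150.3 to 209.9). These were 270, 245, 104 and 166 cells. The log2 ratios there were -0.16, -0.67 and -0.69, short of 2-fold. Basal keratinocyte-like cells had 60.8, 48.4, 37.5 and 36.2 CPM and suprabasal keratinocyte-like cells 25.9, 19.6, 16.3 and 10.2 CPM. An unnamed cluster led by Krt15, Krt17, Trp63 and Lgr5 had 172, 86.1, 148 and 71.8 CPM, and at the finer clustering a basal keratinocyte-like cluster led by Krt15, Krt17 and Tenm2 was above the Schwann or glial-like level in every library, at 696, 419, 527 and 352 CPM in 134, 27, 39 and 98 cells.
In fibroblast-like cells Sfrp1 was at 97.4 CPM (92.4 to 103), 55.8 (49.5 to 62.7), 77.0 (73.4 to 80.7) and 47.3 (44.6 to 50.1). No 2 of these intervals overlapped, apart from those of 12 and 28 dpa, which met within 49.5 to 50.1. This gave log2 ratios of -0.79, -0.34 and -1.03. The first compares different mixes of clusters, because cluster 14 made up 37.4% of fibroblast-like cells before amputation and 5.78% at 12 dpa and held 55.6% and 6.34% of their Sfrp1 UMIs. At 12 dpa cluster 13 alone gave -0.38 and the 23 cells of cluster 14 gave -1.06. Cells with a UMI were 55.6%, 36.4%, 43.3% and 24.9%, and after thinning 13.7% before amputation, 8.72% at 12 dpa and 9.11% at 28 dpa. At 17 dpa 12.0% of thinned cells had Sfrp1 without Sfrp2 and 0.994% had both, so the Sfrp1 share was near the unamputated one. In clusters 13 and 14 the 28 dpa ratios were -0.86 and -0.97, so the class sum passed 2-fold where neither of its main clusters did.
Tenocyte-like cells had Sfrp1 at 94.7, 78.0, 58.2 and 40.4 CPM, with a log2 ratio of -1.21 (interval -1.44 to -1.03) at 28 dpa. Cluster 12 alone gave -1.45 and cluster 11 -0.80.
The steepest difference in Sfrp1 was in osteoblast or osteocyte-like cells, at 103 CPM (94.6 to 112) before amputation, and, in the later libraries, 25.5 (21.4 to 30.1) and 4.50 (2.33 to 7.86) at 17 and 28 dpa. None of these intervals overlapped. The log2 ratios were -1.97 and -4.24 (interval -5.48 to -3.70). Cells with a UMI were 44.7%, 17.5% and 3.08%, and after thinning 9.78%, 4.49% and 0.877%. In the unamputated library 14.1% of the 538 UMIs came from 1 cell. The 10 osteoblast markers summed to 10685, 21109.8 and 25150.1 CPM in the same 3 groups of cells. Markers of other cell types moved too: the 8 chondrocyte or joint lining markers summed to 421, 575 and 1339 CPM, the 8 tenocyte markers to 858, 829.6 and 1632, the 7 smooth muscle markers to 305, 55.2 and 61.9, and the 10 neutrophil markers to 579, 333 and 6.75. The chondrocyte or joint lining list and the tenocyte list share the gene Comp. The part of all these marker levels in the differences of Sfrp1, and of the other members in these cells, was not tested.

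**Figure D3:**
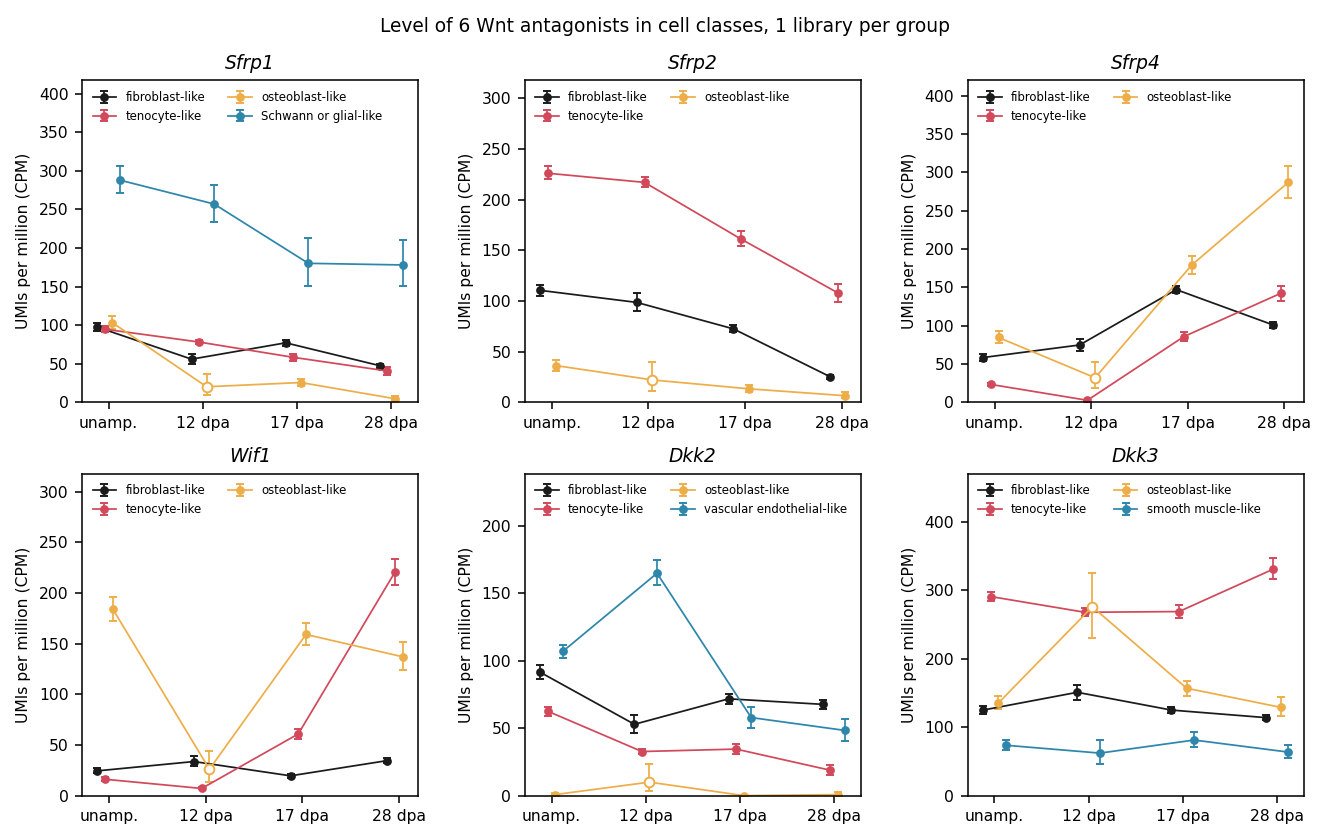
Level of 6 genes in CPM (linear axis from 0) in cell classes of each library; points are the single library of each group, bars the exact 95% Poisson interval, and hollow points classes of fewer than 50 cells (29 osteoblast or osteocyte-like cells at 12 dpa, shown as osteoblast-like). Sfrp2 is lowest at 28 dpa in all 3 classes drawn, and Wif1 in tenocyte-like cells is at 220.3 CPM at 28 dpa against 16.1 CPM before amputation.

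Sfrp4 (chr13:19623104-19632994, plus strand), a family member known for a role in bone cortex, was higher in connective tissue cells at 17 and 28 dpa than before amputation. In fibroblast-like cells it was at 58.3 CPM (54.4 to 62.4), 74.7 (67.4 to 82.6), 147 (142 to 152) and 101 (96.9 to 105). The intervals of the 4 libraries did not overlap, and 17 dpa was highest. The log2 ratios were 0.35, 1.32 (interval 1.23 to 1.45) and 0.78. The share of cells with a UMI was 24.4%, 23.1%, 31.7% and 29.3%, and after thinning 6.91%, 11.5%, 13.9% and 12.6%. Cluster 13 had 55.5, 70.2, 139 and 104 CPM and cluster 14 had 76.2, 103, 225 and 124 CPM, so 17 dpa was highest in both. Cluster 24, led by Apod, Hcn4 and Luzp2, differed, with 20.3, 126, 43.2 and 35.5 CPM, of which the 12 dpa value rested on 30 cells.
In tenocyte-like cells Sfrp4 was at 23.2 CPM (21.3 to 25.3), 2.47 (1.94 to 3.09), 85.7 (80.1 to 91.6) and 142 (132 to 152). The 12 dpa library was lowest and the 28 dpa library highest, and no intervals overlapped. These are log2 ratios of -2.81, 1.84 and 2.56. In the same cells the 8 tenocyte markers summed to 1979, 1898, 2928 and 6808 CPM and the 8 chondrocyte or joint lining markers to 832, 581, 1388 and 4089 CPM, both also lowest at 12 dpa and highest at 28 dpa. Both lists hold the gene Comp, so these sums are not separate observations. The part of these marker levels in the differences of Sfrp4, and of the other members in tenocyte-like cells, was not tested. Cluster 11 had 91.4, 17.0, 180.1 and 501 CPM, and cluster 12 had 5.85, 2.27, 6.50 and 21.3 CPM, with 72.6% of its 28 dpa UMIs from 1 cell. Cluster 11 gave log2 ratios of -2.36, 0.97 and 2.44 and cluster 12 of -1.07, 0.13 and 1.70, so in all 3 comparisons the class ratio was larger in size than that of either cluster. At 17 dpa the class passed 2-fold and neither cluster did. At 12 dpa cluster 12 held 98.0% of the cells and was 2.58-fold lower, against 9.42-fold for the class, and only 35 cells of cluster 11 were found.
In osteoblast or osteocyte-like cells Sfrp4 was at 84.5 CPM (76.8 to 92.8), 179 (168 to 190.4) and 287 (267 to 308) in the unamputated, 17 and 28 dpa libraries, log2 ratios of 1.07 and 1.75. Among whole classes these cells had the highest Sfrp4 level in those 3 libraries. Tenocyte-like cluster 11 was above them in point value, at 91.4, 180.1 and 501 CPM. Fibroblast-like cluster 14 was above them at 17 dpa, at 225 CPM. After thinning 12.9%, 25.1% and 37.1% of the osteoblast or osteocyte-like cells had a UMI. The osteoblast marker sum given above for these cells (10685, 21109.8 and 25150.1 CPM) was in the same order, the chondrocyte or joint lining and tenocyte sums were also highest at 28 dpa, and their part in the Sfrp4 difference was not tested.

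Sfrp5 (chr19:42197971-42202252, minus strand) and Frzb (chr2:80411970-80447625, minus strand), the other two genes of the family, were low. Among whole classes, Sfrp5 was highest in Schwann or glial-like cells in every library, at 6.68 CPM (4.28 to 9.94), 10.2 (6.03 to 16.1), 27.8 (17.2 to 42.5) and 9.90 (4.28 to 19.5), from 24, 18, 21 and 8 UMIs. The 17 dpa interval lay above those of the unamputated and 12 dpa libraries and overlapped that of 28 dpa. These UMIs came from 9, 7, 8 and 5 cells, and 54.2% of those in the unamputated library were from 1 cell. After thinning, 4 of 266, 3 of 231, 1 of 99 and 1 of 147 cells had a UMI, too few to order the libraries by share of cells. Sfrp5 was also read in fibroblast-like cluster 24 at 17 and 28 dpa, at 19.2 and 30.9 CPM from 77 and 61 UMIs, against 2 UMIs there before amputation. Its 28 dpa level was above that of Schwann or glial-like cells, as was the 11.7 CPM at 12 dpa, which rested on 4 UMIs of 1 cell. All Sfrp5 UMIs of fibroblast-like cells at 17 and 28 dpa lay in that cluster.
Frzb, which like the other SFRPs binds Wnt, was at 8.24 CPM (43 UMIs), 3.12 CPM (17 UMIs) and 1.13 CPM (3 UMIs) in osteoblast or osteocyte-like cells of the unamputated, 17 and 28 dpa libraries, log2 ratios of -1.17 and -2.12. In tenocyte-like cells it was at 2.55, 0.329, 2.65 and 6.64 CPM, with a log2 ratio of 1.10 at 28 dpa. The 2 tenocyte-like clusters differed: cluster 11 had 8.15, 4.85, 3.66 and 1.51 CPM and cluster 12 had 1.12, 0.267, 1.80 and 8.35 CPM. These levels rested on 2 to 37 UMIs per cluster and library.

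Wif1 (chr10:121033960-121100650, plus strand) encodes Wnt inhibitory factor 1, which binds Wnt proteins through a domain of its own. In osteoblast or osteocyte-like cells it was at 184 CPM (172 to 196), 159 (149 to 169.9) and 137 (124 to 152) in the unamputated, 17 and 28 dpa libraries. The log2 ratios of -0.21 and -0.42 were small, although the 3 point values descended. In the 29 such cells at 12 dpa it was at 26.0 CPM, and 61.5% of those 13 UMIs came from 1 cell.
In tenocyte-like cells Wif1 was at 16.1 CPM (14.5 to 17.9), 7.04 (6.13 to 8.05), 60.8 (56.1 to 65.8) and 220.3 (208 to 233). No intervals overlapped, with 12 dpa lowest and 28 dpa highest. Relative to the unamputated library, log2 ratios were -1.09, 1.85 (interval 1.73 to 2.11) and 3.69 (interval 3.60 to 3.95). The share of cells with a UMI was 11.7%, 4.84%, 22.1% and 33.9%, and after thinning 2.15%, 1.14%, 8.42% and 17.3%. Cluster 11 had 44.1, 7.28, 115 and 259 CPM, the 12 dpa value from 3 UMIs in 35 cells. Cluster 12 had 8.99, 7.04, 15.2 and 207 CPM, a log2 ratio of 4.38 (interval 4.28 to 4.78) at 28 dpa. At 12 dpa cluster 12, which held 98.0% of the cells, had a log2 ratio of -0.31, within 2-fold. At 17 dpa the ratios of clusters 11 and 12 were 1.37 and 0.69, both below that of the class. The finer part led by Fmod, Ecrg4, Comp and Acan had 15.9, 5.36 and 215 CPM in the unamputated, 12 and 28 dpa libraries, the last from 791 UMIs beside 820 in the whole of cluster 12. The tenocyte and chondrocyte or joint lining marker sums of these cells, given with Sfrp4, were in point value lowest at 12 dpa and highest at 28 dpa as Wif1 was, and their part in the Wif1 difference was not tested.
In fibroblast-like cells Wif1 was at 24.4, 33.6, 19.5 and 34.5 CPM, within 2-fold throughout, but these sums came from small clusters. Cluster 24, with 116, 30, 411 and 288 cells, held 83.6%, 45.6%, 69.1% and 30.7% of the Wif1 UMIs of fibroblast-like cells at 169 CPM before amputation, an interval of 181 to 285 CPM at 12 dpa, and 75.9 and 130.2 CPM at 17 and 28 dpa. Cluster 26, with 3, 7, 15 and 43 cells, held 0.862%, 31.6%, 16.8% and 56.1% of them and reached 2008 CPM (1830.4 to 2198) at 28 dpa. Cluster 13, the most numerous, had 1.99, 7.87, 1.02 and 3.47 CPM. No fibroblast marker was among the 10 leading genes of clusters 24 and 26. At the finer clustering the cells of cluster 26 took no class name, nor did the part of cluster 24 led by Luzp2 and Hcn4.

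**Figure D4:**
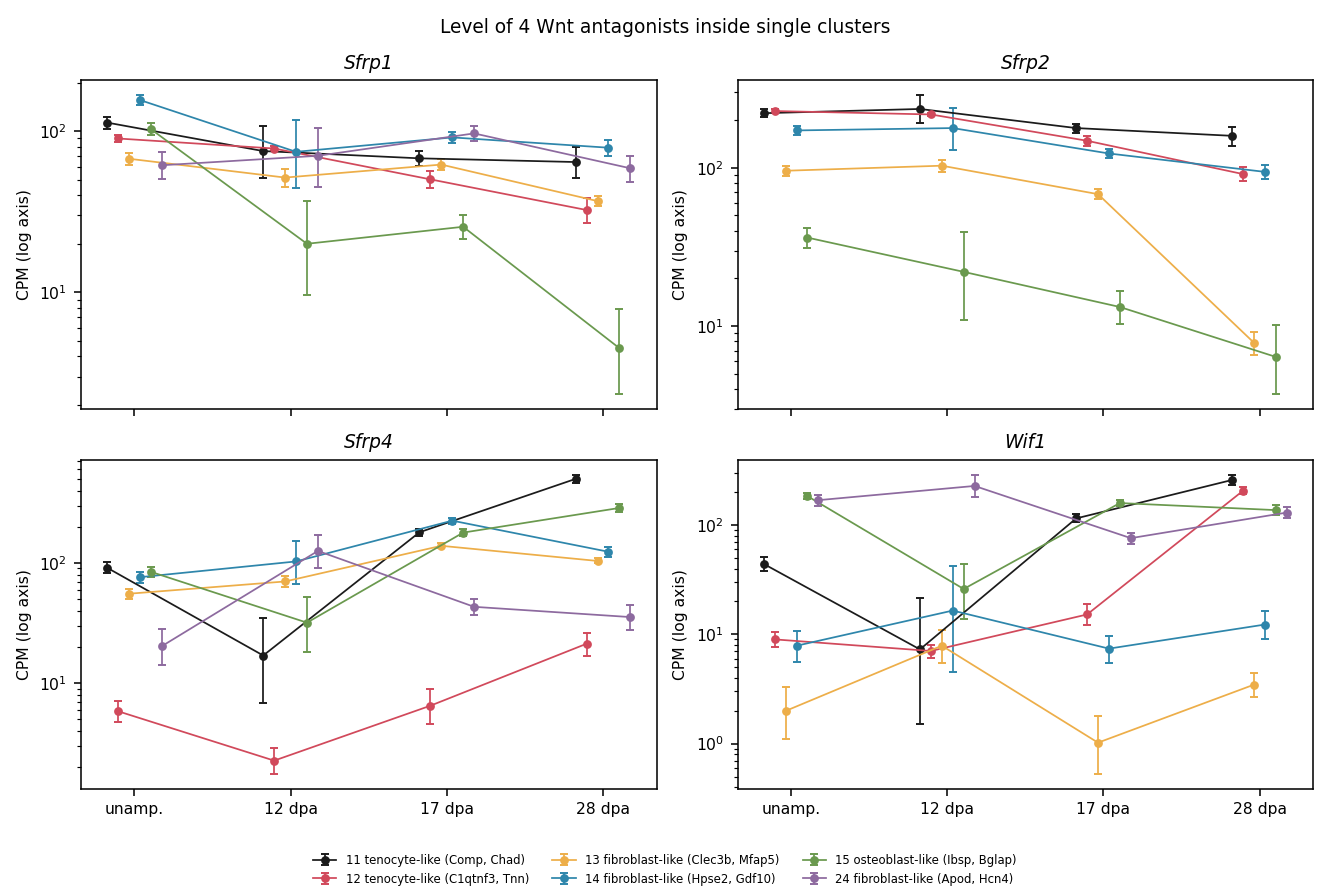
Level of 4 genes in CPM (log axis) inside 6 single clusters, named by class and 2 of their leading genes; points are the single library of each group, bars exact 95% Poisson intervals, and values from fewer than 3 UMIs are not drawn. Sfrp2 at 28 dpa is at 7.82 CPM in cluster 13 and at 94.1 CPM in cluster 14, and Wif1 in cluster 12 is at 207 CPM at 28 dpa against 8.99 CPM before amputation.

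Dkk2 (chr3:132085292-132180304, plus strand) encodes a Dickkopf protein that binds LRP5 and LRP6. Among whole classes, vascular endothelial-like cells had the highest level before amputation and at 12 dpa, at 107 CPM (102 to 112) and 165 (156 to 175). They had 57.9 (50.5 to 66.1) and 48.3 (40.7 to 56.7) CPM at 17 and 28 dpa. The log2 ratios were 0.63, -0.87 and -1.13 (interval -1.40 to -0.90 for the last). The 12 dpa level was above the unamputated one and both later levels below it, with no overlap. After thinning, 10.8%, 17.9%, 7.44% and 6.38% of these cells had a UMI. Cluster 6, led by the adhesion genes Sele and Selp, had 81.9, 71.1 and 9.73 CPM in the first 3 libraries and 13.2 to 29.1 CPM at 28 dpa (27 UMIs), and cluster 7, led by Cldn5, a tight junction gene, had 128, 207, 91.4 and 72.8 CPM. The log2 ratios of cluster 6 at 17 and 28 dpa were -2.95 and -1.98, and those of cluster 7 were -0.48 and -0.81.
In fibroblast-like cells Dkk2 was at 91.5 CPM (86.6 to 96.6), 52.9 (46.8 to 59.6), 71.8 (68.3 to 75.4) and 67.7 (64.5 to 71.1), all within 2-fold. At 12 dpa, with the same change in the mix of clusters as for Sfrp1, the class ratio was -0.78, that of cluster 13 -0.41 and that of cluster 14, from 13 UMIs, -1.42. Cluster 26 held 304 UMIs in 15 cells at 17 dpa, 3919 CPM (3491 to 4385), and 222 UMIs in 43 cells at 28 dpa, 948 CPM (828 to 1082), which were 18.7% and 13.5% of the Dkk2 UMIs of fibroblast-like cells. Clusters 13 and 14 had 64.6 and 80.5 CPM at 17 dpa, in point value below endothelial-like cluster 7, so no order of the 2 classes is read there. Before amputation cluster 14, at 146 CPM, was above the endothelial-like class and its clusters 6 and 7. In cluster 24 at 28 dpa 97.7% of the 43 UMIs came from 1 cell. Tenocyte-like cells had 62.6, 32.7, 34.5 and 18.8 CPM of Dkk2, with a log2 ratio of -1.68 at 28 dpa that was -2.36 in cluster 12 and -0.96 in cluster 11. Cluster 12 held different finer parts in these 2 libraries. Its part led by Cadps and Crabp1 had 207 CPM before amputation, from 305 UMIs in 65 cells, and gave no value at 28 dpa. Its part led by Fmod, Ecrg4, Comp and Acan had 34.7 CPM in 64 cells before amputation and 11.7 CPM in 340 cells at 28 dpa.

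Dkk3 (chr7:112116017-112159057, minus strand), a divergent Dickkopf family member whose action on Wnt signalling is less settled, stayed within 2-fold of its unamputated level in fibroblast-like and tenocyte-like cells. In tenocyte-like cells it was at 291 CPM (284 to 298), 268 (262 to 274), 269 (259 to 279) and 331 (316 to 347), and in fibroblast-like cells at 125 (119 to 131), 151 (140.1 to 162), 125 (120.1 to 129) and 114 (109.8 to 118). Log2 ratios of fibroblast-like cells were 0.27, 0.00 and -0.13. Tenocyte-like cells were the highest class in every library among those of at least 50 cells, and 95.7%, 90.8%, 85.1% and 78.7% of them had a UMI, or 41.1%, 41.2%, 38.6% and 43.6% after thinning. The clusters beneath these sums differed. Cluster 11 had 348, 289, 267 and 225 CPM and cluster 12 had 276, 267, 270.3 and 367 CPM, and fibroblast-like cluster 14 had 143, 178, 122 and 71.5 CPM. Smooth muscle-like cells had 73.6, 62.1, 81.2 and 63.6 CPM and pericyte-like cells 38.9, 56.1, 28.6 and 40.7 CPM.

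Sost (chr11:101962458-101967015, minus strand) encodes sclerostin, the osteocyte product that binds LRP5 and LRP6 and restrains bone formation. It was close to absent, with 10, 2, 34 and 3 UMIs in all cells of the 4 libraries. In osteoblast or osteocyte-like cells it had 6 UMIs before amputation, all in 1 cell, and 33 UMIs at 17 dpa in 2 cells, 93.9% of them from 1 cell. The level of 6.06 CPM at 17 dpa therefore describes 1 cell. Tenocyte-like cells had 0 UMIs in every library, which allows at most 0.0987 to 0.569 CPM when 3 counts are taken as the limit.

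Differences past 2-fold were counted over the members within each class, and the counts of different classes were not tested against each other. Counted were genes of at least 5 CPM in either library with a log2 ratio of at least 1 or at most -1, and 6 of the 9 members reached 5 CPM in fibroblast-like cells in each comparison. In fibroblast-like cells at 12 dpa 0 of the 6 were 2-fold higher and 0 lower, where 1.15% and 5.63% of all 10758 genes were. At 17 dpa 1 was higher (Sfrp4) and 0 lower, against 0.614% and 1.35% of all genes. At 28 dpa 0 were higher and 2 lower (Sfrp1, within 2-fold in both main clusters, and Sfrp2), against 2.39% and 5.74%. The median log2 ratio of the members was 0.05, -0.32 and -0.28, beside -0.21, -0.03 and -0.13 over all genes counted. All 3 comparisons share the unamputated library, and the members were chosen with their levels known, so nothing particular to the list is read from these shares.
In tenocyte-like cells at 12 dpa 0 of 6 members were higher and 2 lower (Sfrp4 and Wif1), against 0.550% and 1.92% of all genes. In cluster 12, nearly the whole class at that time, Sfrp4 was also lower and Wif1 was within 2-fold. At 17 dpa the same 2 genes were higher and 0 were lower, against 1.34% and 1.13%, although Sfrp4 was within 2-fold in both clusters and Wif1 in cluster 12. At 28 dpa, with 7 counted, 3 were higher (Sfrp4, Frzb and Wif1) and 3 lower (Sfrp1, Sfrp2 and Dkk2), against 3.82% and 5.74%. In cluster 12 all 6 passed 2-fold in the same direction, although most of the Sfrp4 UMIs there at 28 dpa came from 1 cell. In cluster 11 only Sfrp4 and Wif1 passed 2-fold in the direction of the class. Sfrp1, Sfrp2 and Dkk2 were within 2-fold in cluster 11, and Frzb was 2-fold lower, from 2 UMIs. In osteoblast or osteocyte-like cells at 17 dpa 2 of 7 were higher (Sfrp4, and Sost from 1 cell) and 3 lower (Sfrp1, Sfrp2 and Frzb), against 2.58% and 4.68%. At 28 dpa 1 of 6 was higher (Sfrp4) and the same 3 were lower, against 3.96% and 9.87%.

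**Figure D5:**
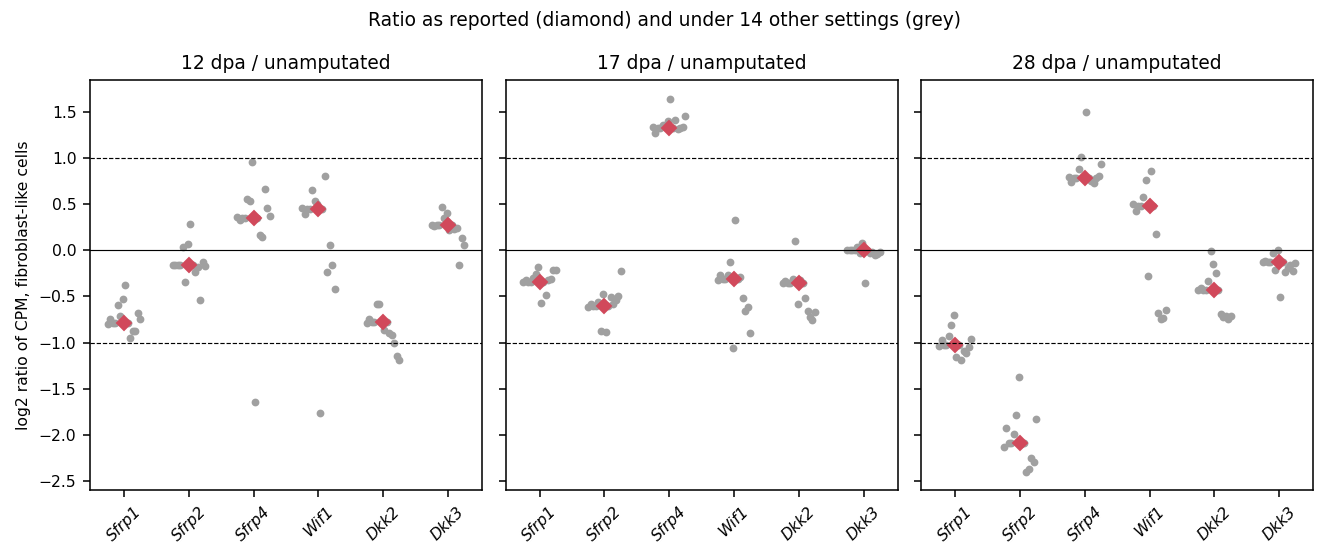
Log2 ratio of CPM in fibroblast-like cells, each dpa library over the unamputated library, for 6 genes; the diamond is the reported ratio, grey points are 14 alternative settings and dashed lines mark 2-fold. Sfrp4 at 17 dpa lies between 1.27 and 1.64 and Sfrp2 at 28 dpa between -2.40 and -1.37 under every alternative drawn, whereas Wif1 at 12 and 28 dpa lies on both sides of 0.

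Of these ratios, Sfrp4 at 17 dpa was 2-fold higher in 14 of 14 alternatives (1.27 to 1.64) and Sfrp2 at 28 dpa 2-fold lower in 14 of 14 (-2.40 to -1.37). Sfrp1 at 28 dpa was 2-fold lower in 9 of 14 (-1.19 to -0.70), so its place past 2-fold was marginal.

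At equal depth, cells with a UMI of 1 antagonist outnumbered those with several in fibroblast-like and tenocyte-like cells of every library. After thinning, 50.7%, 46.7%, 51.7% and 55.3% of fibroblast-like cells had a UMI of none of the 9, and 13.3%, 11.5%, 12.1% and 8.57% had UMIs of exactly 2. Of tenocyte-like cells, 33.9%, 36.6%, 34.6% and 31.4% had none, 18.5%, 17.7%, 17.1% and 20.9% had exactly 2, and 4.20%, 3.72%, 4.61% and 4.54% had 3. Sfrp4 and Wif1, which were both highest at 28 dpa in tenocyte-like cells, were found together in 2 of 929, 0 of 1747, 11 of 760 and 21 of 573 such cells, 3.66% at 28 dpa. At this depth, cells that express both can be missed.

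The genes whose level followed each member most closely were sought over 56 sums of a class in a library, among 8836 genes, by Pearson correlation of log2(CPM + 1). These points share libraries and depth, and the values are a description. Sfrp2 was closest to Fbn2 (0.92), Mfap4 (0.91) and Itgbl1 (0.90), of which Fbn2 and Mfap4 encode proteins of elastic microfibrils. Sfrp4 was closest to Gdf10 (0.93), Ptprd (0.91) and Cldn10 (0.90), and Wif1 to Hoxd13 (0.91), a homeobox gene of the distal limb, Csrnp3 (0.91) and Mme (0.90). Sfrp1 was closest to Cxcl14, Robo2 and Ephb2 (each 0.88), and Sfrp5 to Sox2, Soga3 and Gm26673 (each 0.93). Dkk3 was closest to Snhg18 (0.92), Col12a1 and Sdc2 (both 0.91), and Dkk2 to the endothelial and progenitor gene Cd34 (0.86), the endothelial gene Ramp2 (0.83) and Igf1 (0.78). Among these 7 members, which leave out Frzb and Sost, Sfrp4 and Wif1 were closest to each other (0.89) and Sfrp5 and Wif1 least alike (0.02).

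Of 75 other genes of the Wnt pathway in lists of ligands, receptors, R-spondins, intracellular components, targets and other inhibitors, 51 reached 5 CPM in fibroblast-like cells at 12 dpa, and 0 were 2-fold higher and 6 lower, where 1.15% and 5.63% of all genes were. The lowest ratios were those of the ligand gene Wnt10a and of Lef1, a β-catenin partner and target. Wnt10a was at 12.9 CPM before amputation and 0.786 CPM, from 4 UMIs, at 12 dpa (log2 -2.96). Lef1 was at 13.2 and 2.75 CPM, the latter from 14 UMIs (log2 -1.92). At 12 dpa the mix of fibroblast-like clusters differed as given for Sfrp1, and its part in these ratios was not tested. At 17 dpa 0 of 51 were higher and 2 lower, against 0.614% and 1.35% of all genes. These were the ligand genes Wnt16 (18.9 and 8.19 CPM, log2 -1.11) and Wnt5b (52.8 and 25.4 CPM, log2 -1.03). At 28 dpa 2 of 53 were higher and 7 lower, against 2.39% and 5.74%. The higher ones were Sostdc1, an LRP-binding antagonist outside the 9, at 0.842 and 14.8 CPM (log2 3.10), and Ccnd1, a cell cycle gene, at 19.6 and 52.6 CPM (log2 1.38). The lowest were Lgr5, a receptor for R-spondins, at 13.8 and 2.76 CPM (log2 -1.97), and the R-spondin gene Rspo2, at 19.7 and 6.47 CPM (log2 -1.47). In tenocyte-like cells 0, 2 and 4 of 42, 45 and 47 genes were 2-fold higher and 1, 1 and 4 lower at 12, 17 and 28 dpa, where 0.550%, 1.34% and 3.82% of all genes were higher and 1.92%, 1.13% and 5.74% lower. In osteoblast or osteocyte-like cells 3 of 51 were higher and 2 lower at 17 dpa, against 2.58% and 4.68%, and 3 of 49 were higher and 9 lower at 28 dpa, against 3.96% and 9.87%.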

How the data were processed

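Single-cell RNA was measured in 4 libraries made with 10x Chromium 3′ v3 chemistry, per the labels' protocols, from sorted live cells. The authors deposited UMI counts as whole numbers for each gene in each cell, written with Cell Ranger 7.1.0, per the file headers, and the submitters' processing notes name the genome build mm10. Gene coordinates come from GENCODE M21 (GRCm38), which held 32235 of the 32285 gene IDs. All columns of the files were mapped to a sample.

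A cell was used if it had 500 or more genes, 1000 or more UMIs and no more than 10% of its UMIs from mitochondrial genes. Doublets were removed by Scrublet score at 0.8% per 1000 barcodes, which took 12.8%, 7.05%, 8.41% and 12.2% of the unamputated, 12, 17 and 28 dpa barcodes, where the automatic threshold would have taken 1.81%, 1.70%, 2.49% and 4.05%. The libraries were clustered together (scanpy 1.11.5, python-igraph 0.11.9) with each cell scaled to 10000 UMIs, using the 2000 most variable genes, 15 neighbours in 30 principal components, and Leiden resolution 1, or 2 for the finer clusters. The 9 genes, the other Wnt genes, mitochondrial and Y-linked genes, Xist and Tsix took no part in the clustering. A cluster was named where at least 3 markers of a class were each detected in at least 25% of its cells and no other class had more markers among its 10 leading genes, a rule written after the clusters had been seen.

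UMIs were summed per class and library and divided by the class total (CPM), with exact Poisson intervals. Shares of cells have exact Clopper-Pearson intervals (scipy 1.17.1). Ratios used a pseudocount of 1 CPM and genes of at least 5 CPM in either library. With 1 library per group, no test was run. The members, the gene lists and the markers were chosen with earlier results of these data known. Named were all 9 members, the 3 most alike genes of each member that reached 20 CPM (Sfrp5 did so in Schwann or glial-like cells), and the 2 highest and 2 lowest other Wnt genes past 2-fold in fibroblast-like cells of each library. The counting of genes past 2-fold was tested on simulated counts for fibroblast-like cells, where it found 196, 198 and 200 of 200 changed genes at 12, 17 and 28 dpa and called 1 of 10484, 0 of 10442 and 0 of 10410 unchanged ones. These simulated counts hold counting error only, and no difference between animals, sexes or the mix of clusters. All changed genes were given ratios clearly past 2-fold and the unchanged ones none. Calls close to 2-fold, such as that of Sfrp1 at 28 dpa, were therefore not covered. Alternatives covered the pseudocount, the minimum level, the scaling, the weighting of cells and clusters, the clustering, the filters and the doublets.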

Additional observations from a re-analysis of the deposited data

How the results depend on the processing

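The counts of fibroblast-like members past 2-fold (0 higher and 0 lower at 12 dpa, 1 and 0 at 17 dpa, 0 and 2 at 28 dpa) moved in part. At 28 dpa the lower count was 1, Sfrp2 alone, with a pseudocount of 5 CPM, with the median ratio set to 0, with cells or clusters weighted equally, and with no doublets removed. Without a minimum level, or with cells or clusters weighted equally, 2 were higher at 17 dpa, Sfrp5 joining Sfrp4, and 1 was higher at 28 dpa (Sfrp5, or Sfrp4 with cells weighted equally). With clusters weighted equally 1 was lower at 17 dpa (Wif1). With the 3 stromal classes pooled, 2 were lower at 12 dpa (Sfrp4 and Wif1) and 1 higher at 28 dpa (Sfrp4). With looser or stricter filters on cells, or no doublets removed, 1 was lower at 12 dpa (Dkk2, at -1.01, -1.15 and -1.19). The cause was not tested. The other 68 values, which take in these counts and the count of 23 pairs after thinning given below, stayed within 1.5 times. Of the values of single ratios, 92 lay outside the counting interval of the reported ratio and 160 inside it. The alternatives were run for fibroblast-like cells, and those of the other classes have none. Over all classes, the class with the highest CPM also had the highest share of cells with a UMI in 22 of 25 pairs of a member and a library that reached 20 CPM in some class, and in 23 after thinning. Leaving out the clusters that no fibroblast marker leads, chosen after seeing the data, changed no count. Single ratios that crossed 0 were those of Sfrp2, Sfrp4, Dkk3 and Wif1 at 12 dpa, Dkk2, Dkk3 and Wif1 at 17 dpa and Wif1 at 28 dpa, where Wif1 ranged from -0.74 to 0.86. Dkk3 at 28 dpa reached 0.00 with clusters weighted equally. No paired analysis was possible because each group holds 1 library, and for the same reason no library could be left out. Depth limits the levels read from a few UMIs, such as Frzb in osteoblast or osteocyte-like cells at 28 dpa (3 UMIs), whereas Sost at 17 dpa is limited by resting on 1 cell.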
